A study of Mus musculus with 26 samples.

Results

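The genes described here copy DNA or supply its building blocks, and they were taken by name from a list of 41 genes, drawn up with earlier results of these data known. They comprise licensing factors, the replicative helicase, DNA polymerases and primase, the sliding clamp and its loader, and single-strand binding proteins. They also comprise enzymes that process or join DNA fragments, enzymes of nucleotide synthesis, chromatin factors of the replication fork and a histone mRNA factor. Of the 41 genes, 40 had a probe set annotated to them alone, among 18193 genes measured, and Chaf1a was not measured. Single retinal cells were profiled on Affymetrix mouse arrays, with 1 cell on each array.

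N1-CKO cells came from homozygous Notch1 flox mice on a C57BL/6 background, whose retinas were electroporated at postnatal day 0 with CAG:Cre and CALNL-GFP. Cre then deletes the floxed part of Notch1 and switches on the GFP reporter. WT cells carried the same floxed alleles and received CAG:GFP without Cre, so Notch1 stayed intact in them by design. CAG is a broadly active promoter, so neither plasmid was restricted to a retinal cell type. Retinas developed in the animal until postnatal day 3, when single cells with GFP were picked from the dissociated tissue. There were 13 N1-CKO and 13 WT cells, and the labels name no animal, so each group stands as 1 sample and no test between the groups was made. SDs given below describe the spread between cells.

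Replication begins in G1, when the origin recognition complex, Cdc6 and Cdt1 load the Mcm2 to Mcm7 helicase ring onto DNA, a step called licensing. In S phase Cdc45 and the GINS complex activate the helicase, the primase and polymerase alpha start each strand, and polymerases delta and epsilon extend it on the clamp Pcna. Transcription of many of these genes is driven by E2F factors and peaks around the start of S phase. In the newborn mouse retina, progenitors still divide and leave the cycle to become rods, bipolar cells, amacrine cells and Müller glia, and Notch1 signalling keeps progenitors from differentiating.

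Promoter windows of the genes were searched for the E2F motif, because the transcripts were compared as a set. The motif was read as TTNNCGC with each N a C or G, on either strand. RefSeq windows (build GRCm38.p6) run from 250 bases before to 50 bases after a gene start and were found for 35 of the 41 genes. At least 1 window of 22 of these 35 genes (62.9%) held the motif, as did 10.9% of all 27025 genes with a window and 13.7% of the 17492 protein-coding genes. Counted by window, the share was 61.0% of 41 windows for the replication genes and 9.57% of all windows. The windows of the replication genes were also richer in G and C, with a median of 61.3% against 52.7% over all windows. The CCAAT box, read as CCAAT on either strand, lay in 58.5% of the replication gene windows and in 37.4% of all windows, but in 85.7% of 21 windows of mitosis genes, which held the E2F motif in 19.0%. The median share of G and C was 60.7% in mitosis gene windows and 56.3% in those of protein-coding genes.

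The 120 bases before the start are shown for 5 genes with the motif and for Pold2, whose window holds none, because all 6 are among the genes with the lowest N1-CKO means relative to WT. Capitals mark the E2F motif, and each sequence runs 5′ to 3′ on the gene's strand.
Rrm1 (chr7:102441575-102441694, + strand): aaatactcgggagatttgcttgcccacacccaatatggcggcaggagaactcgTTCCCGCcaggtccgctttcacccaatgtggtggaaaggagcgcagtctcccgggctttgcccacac
Uhrf1 (chr17:56303217-56303336, + strand): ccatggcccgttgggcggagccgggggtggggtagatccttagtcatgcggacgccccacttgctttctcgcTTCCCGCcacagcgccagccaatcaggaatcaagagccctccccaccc
Mcm6 (chr1:128359706-128359825, - strand): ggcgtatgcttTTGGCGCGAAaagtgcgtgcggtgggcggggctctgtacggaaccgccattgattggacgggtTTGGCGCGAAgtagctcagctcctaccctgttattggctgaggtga
Prim1 (chr10:128015095-128015214, + strand): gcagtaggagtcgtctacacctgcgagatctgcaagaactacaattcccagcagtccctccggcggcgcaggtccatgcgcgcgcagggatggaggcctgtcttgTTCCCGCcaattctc
Rpa2 (chr4:132768240-132768359, + strand): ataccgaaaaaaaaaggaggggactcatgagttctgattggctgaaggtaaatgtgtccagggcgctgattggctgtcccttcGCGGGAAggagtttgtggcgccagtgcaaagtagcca
Pold2 (chr11:5878257-5878376, - strand): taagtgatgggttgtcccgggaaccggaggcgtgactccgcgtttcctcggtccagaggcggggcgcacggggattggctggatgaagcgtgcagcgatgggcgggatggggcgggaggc
The motif began 67 bases before the start in Rrm1, 48 in Uhrf1, 15 in Prim1 and 37 in Rpa2. In Mcm6 it was matched 4 times, as 2 places where matches on opposite strands overlap. A match says only that these letters are present.

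Before the gene values, some facts of the arrays bear on all of them. A transcript is called detected in a cell when its signal lies in the brightest 10% of that cell's array, and signals are given on the log2 scale with a floor of 4.65. At a common threshold, a signal of 1252, the median count of bright probe sets was 4433 in N1-CKO cells (2800 to 5670) and 4764 in WT cells (2558 to 6212). By the 18S ribosomal RNA control there were 10 arrays rich in 18S, 5 of N1-CKO and 5 of WT cells, and 16 poor in it, 8 of each. The 3' to 5' ratio of the Gapdh control, a sign of RNA quality, was 1.46 to 245.4 in N1-CKO cells and 1.40 to 3.26 in WT cells, and was at most 3 in 8 N1-CKO and 11 WT cells. Notch1 itself, whose probe set is not known to lie in the deleted part, was detected in 8 N1-CKO and 10 WT cells and checks nothing about recombination. Of 13 marker genes of cells outside the neural retina, 10 were detected in no cell, as were 7618 of the 18193 measured genes. The others were Gfap (1 cell), Hba-a1 (2 cells) and Mitf (1 cell).

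The replication genes had lower mean signals in N1-CKO cells as a group, by at least 4-fold for 11 of them. Of the 40 measured, 31 (77.5%) had a lower mean in N1-CKO cells and 9 a higher one, whereas 46.5% of all measured genes, and 52.3% of those detected in at least 6 of the 26 cells, had a lower mean. The difference was -2 or lower on the log2 scale, a 4-fold difference of geometric means, for 11 genes (27.5%) and 2 or higher for 0. Over all measured genes, 3.18% lay at -2 or lower and 2.17% at 2 or higher. Among the 4682 genes detected in at least 6 cells, those shares were 9.5% and 6.66%. The 11 genes were Rrm1, Gmnn, Uhrf1, Mcm3, Pold2, Lig1, Rrm2, Fen1, Prim1, Mcm6 and Rpa2, so each functional group but the clamp genes and the histone mRNA factor had at least 1. The median difference over the 40 genes was -1.005, and over all measured genes it was 0.05. All 11 kept a lower N1-CKO mean on 18S-rich arrays, on 18S-poor arrays and where the Gapdh ratio was 3 or less, but on 18S-rich arrays 5 of them fell short of -2. These were Rpa2 (-1.71), Pold2 (-1.47), Mcm3 (-1.45), Mcm6 (-1.07) and Prim1 (-0.05). The difference exceeded the larger of the SDs over cells for 4 of them, Rrm1, Gmnn, Mcm3 and Fen1. That held in the lower direction for 0.462% of all measured genes and for 1.52% of those detected in at least 6 cells.

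The size of the group difference depended on the array set. The median over the 40 genes was -0.10 on 18S-rich arrays, where the median of all measured genes was 0.21, and -1.68 on 18S-poor arrays. On 18S-rich arrays 8 genes lay at -2 or lower (5.24% of all measured genes), 6 of the 11 and also Mcm4 (-3.03) and Orc6 (-2.12), and Rfc5 (4.10), Pold1 (3.67) and Rpa1 (2.97) lay at 2 or higher (8.27% of all measured genes). On 18S-poor arrays 18 genes lay at -2 or lower (6.76% of all measured genes) and 0 at 2 or higher. Where the Gapdh ratio was 3 or less the median was -1.18, and 15 genes lay at -2 or lower (3.85% of all measured genes). The part of the array set in these values was not tested.

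**Figure D1:**
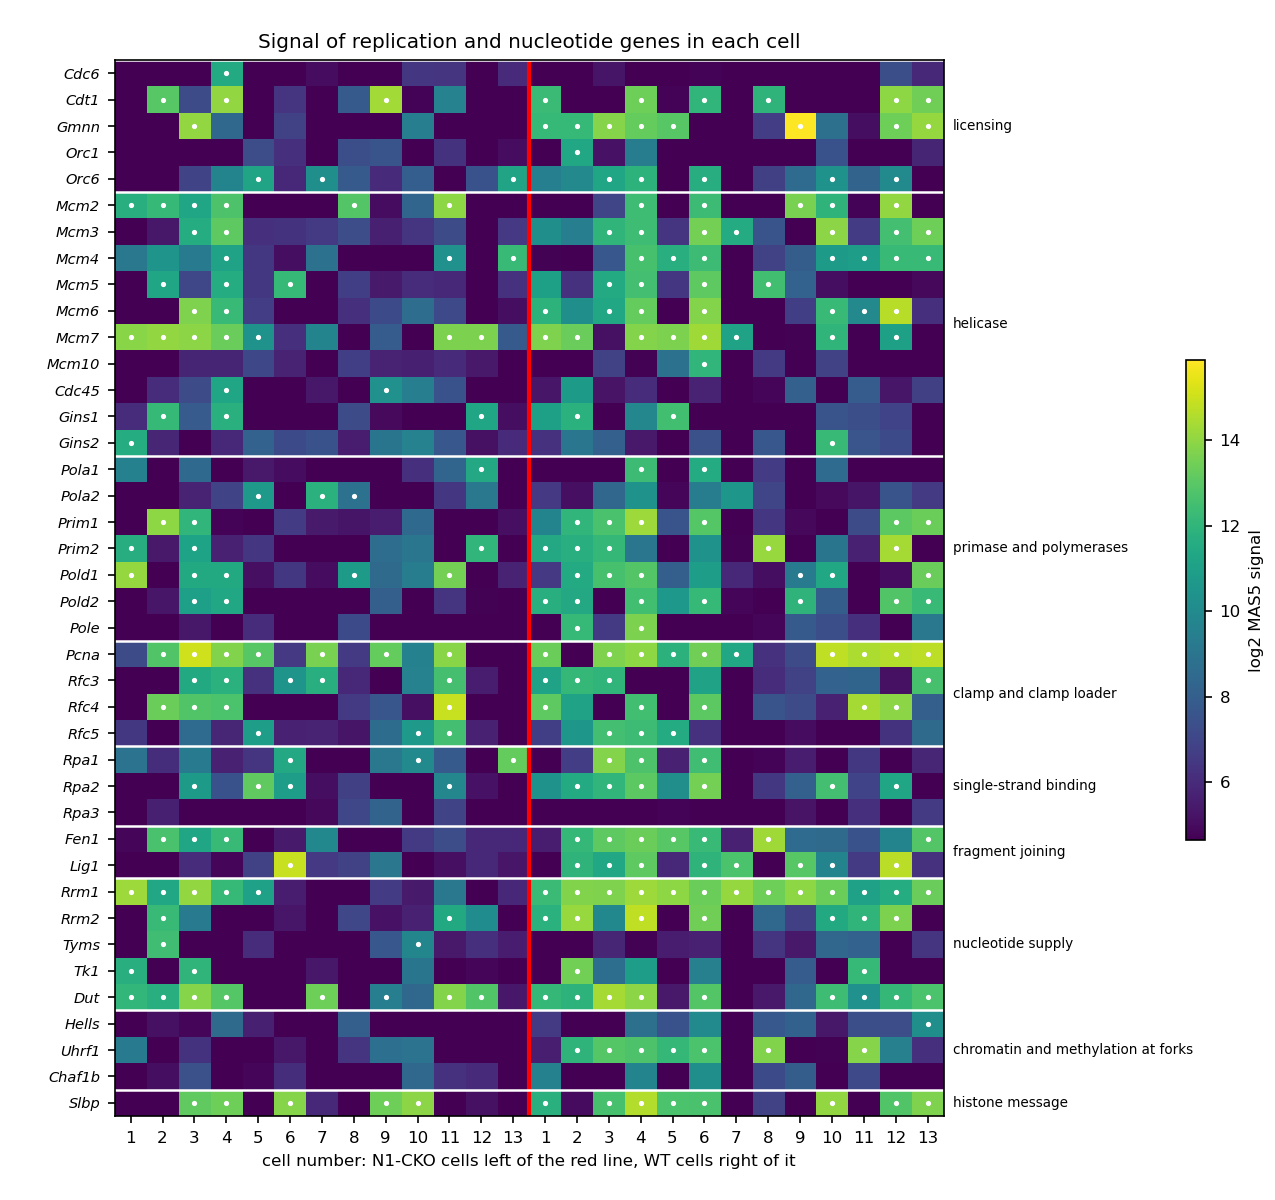
Log2 MAS5 signal of the 40 measured genes (rows, by functional group) in the 13 N1-CKO cells (left of the red line) and the 13 WT cells (right of it). White dots mark cells that detect the transcript; Rrm1 carries a dot in 5 N1-CKO cells and in all 13 WT cells.

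Nucleotide supply held the most widely detected gene of the set. Rrm1 encodes the large subunit of ribonucleotide reductase, which makes deoxyribonucleotides. Its log2 signal had a minimum of 4.65, a median of 6.63 and a maximum of 14.21 in N1-CKO cells, and 11.08, 13.41 and 14.21 in WT cells. Rrm1 was detected in 5 of 13 N1-CKO cells (38.5%, exact Clopper-Pearson 95% interval 13.9 to 68.4) and in 13 of 13 WT cells (100%, 75.3 to 100). The groups overlapped through N1-CKO cells 1 to 5, which had at least 11.09, while the other 8 N1-CKO cells had at most 9.12, below every WT cell. The mean was 8.43 ± 3.71 in N1-CKO and 13.23 ± 0.98 in WT cells, a difference of -4.81, with -4.69 on 18S-rich and -4.88 on 18S-poor arrays. The other 2 Rrm1 probe sets were dim, detected in 0 N1-CKO and 4 WT cells (-0.96) and in 0 cells of either group (-0.16), and with all 3 averaged the difference was -1.98.

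Rrm2, the small subunit of the same enzyme, is the one whose amount follows S phase. It ranged from 4.65 to 12.21 (median 5.34) in N1-CKO cells and from 4.65 to 14.80 (median 11.47) in WT cells, with 2 N1-CKO and 7 WT cells detecting it. The groups overlapped over most of their range, and the means differed by -3.14. Of the 2 N1-CKO cells with Rrm2, 1 also had Rrm1, which every WT cell had. Dut, which removes dUTP, showed no such difference. It was detected in 8 N1-CKO and 9 WT cells, with means of 9.83 ± 3.81 in N1-CKO and 10.51 ± 3.40 in WT cells. Thymidine kinase Tk1 was detected in 2 cells of each group (-1.17), and thymidylate synthase Tyms in 2 N1-CKO and 0 WT cells (0.47). A further Tyms probe set, annotated to a pseudogene as well, was left out.

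**Figure D2:**
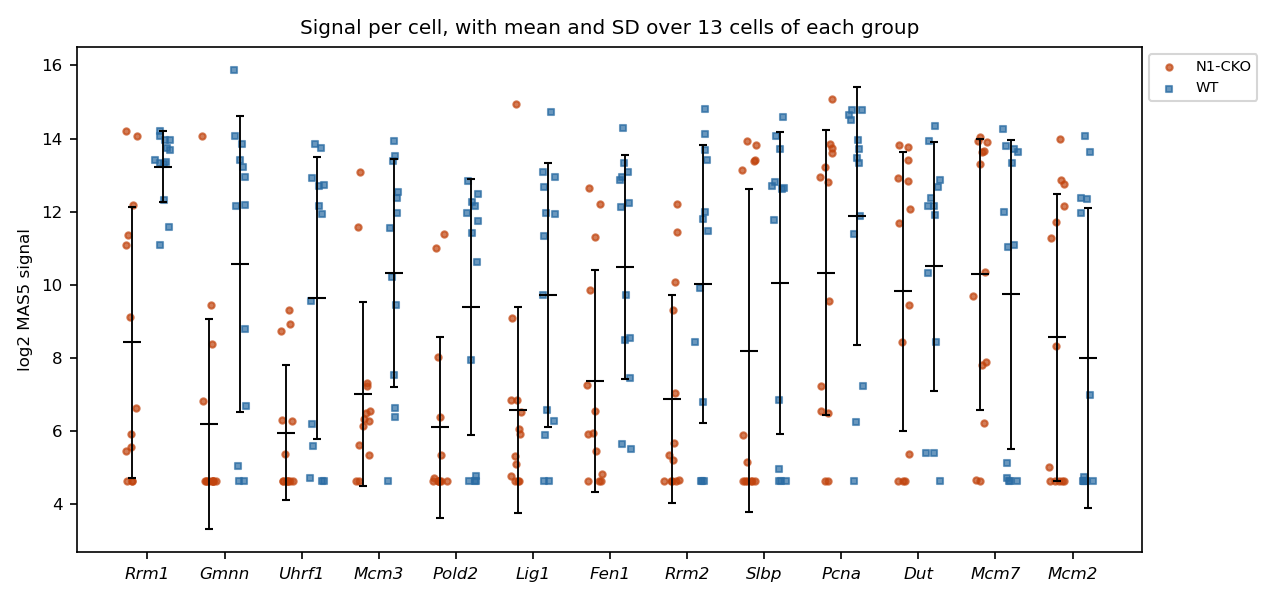
Log2 MAS5 signal of 13 replication and nucleotide genes per cell, with N1-CKO cells left of WT cells for each gene and black bars for the mean and SD over 13 cells. Most genes form a bright and a dim cloud in WT cells. In N1-CKO cells Gmnn and Lig1 are detected in 1 cell each, and Mcm3, Pold2 and Rrm2 in 2 each. Rrm1 in WT cells has no dim cloud, and Uhrf1 in N1-CKO cells has no value above 9.32.

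Among licensing genes the inhibitor differed more than the loaders. Gmnn encodes geminin, which binds Cdt1 and blocks a new round of licensing in S and G2. Its signal had a median of 4.65 (4.65 to 14.07) in N1-CKO cells and of 12.18 (4.65 to 15.88) in WT cells. It was detected in N1-CKO cell 3 and in 8 WT cells, and 12 of the 13 N1-CKO cells had at most 9.46. The means were 6.19 ± 2.88 in N1-CKO and 10.58 ± 4.04 in WT cells, a difference of -4.38. Cdt1, its target, was detected in 3 N1-CKO and 6 WT cells (-0.73), with the opposite sign of 0.76 on 18S-rich arrays. The 3 N1-CKO cells with Cdt1 were cells 2, 4 and 9. Gmnn and Cdt1 were detected together in 0 N1-CKO and 4 WT cells. With Gmnn detected in 1 N1-CKO cell, these joint counts follow largely from the count of each gene. They say nothing of a link between the genes. Of the other loaders, Orc6 was detected in 3 N1-CKO and 5 WT cells (-1.05), Orc1 in 0 N1-CKO and 1 WT (-0.32) and Cdc6 in 1 N1-CKO and 0 WT (0.56).

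The helicase subunits did not differ alike. Mcm2 to Mcm7 form 1 ring with each subunit present once, and the ring is loaded as a whole. Mcm3 had a median of 6.34 (4.65 to 13.08) in N1-CKO cells and of 11.55 (4.65 to 13.94) in WT cells, detected in 2 N1-CKO and 7 WT cells. The means were 7.02 ± 2.52 in N1-CKO and 10.32 ± 3.11 in WT cells, a difference of -3.30, and 3 other Mcm3 probe sets detected in WT cells differed by -3.87 to -3.33. Mcm6 was likewise detected in 2 N1-CKO and 7 WT cells, with a difference of -2.62. Both N1-CKO cells with Mcm3 also had Mcm6, as did 5 of the 7 WT cells with Mcm3.

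Mcm2 and Mcm7 stood against this. Mcm2 was detected in 6 N1-CKO and 5 WT cells, with means of 8.56 ± 3.93 in N1-CKO and 8.00 ± 4.10 in WT cells. Mcm7 was detected in 7 N1-CKO and 8 WT cells, with means of 10.29 ± 3.70 in N1-CKO and 9.74 ± 4.22 in WT cells, and its groups overlapped over their whole range. Another Mcm7 probe set, detected in 4 N1-CKO and 6 WT cells, differed by -1.73, so the sign for Mcm7 rests on the probe set. Mcm4 (3 N1-CKO and 7 WT cells, -1.37) and Mcm5 (3 N1-CKO and 4 WT cells, -0.96) lay between. At least 3 of the 6 ring subunits were detected in 4 N1-CKO and 5 WT cells, and all 6 in 1 N1-CKO and 2 WT cells. At least 2 subunits were detected in 5 N1-CKO and 10 WT cells, and no subunit in 3 N1-CKO cells and 0 WT cells.

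The factors that activate the helicase were rarely detected in either group. Cdc45 was detected in 2 N1-CKO and 0 WT cells (0.39), and the GINS subunit genes Gins1 in 3 N1-CKO and 2 WT cells (-0.40) and Gins2 in 1 N1-CKO and 1 WT (0.33). Mcm10, which acts in helicase activation, was detected in 0 N1-CKO and 1 WT cells (-0.45).

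Of 7 polymerase and primase genes, 6 averaged lower in N1-CKO cells, 2 of them past the 4-fold difference. Lower means were found for 46.5% of all measured genes, and 3.18% lay at -2 or lower. The median difference of the 7 genes was -1.79 over all cells, -0.05 on 18S-rich and -2.68 on 18S-poor arrays. Pold2 encodes the accessory subunit of polymerase delta. Its median was 4.65 (4.65 to 11.39) in N1-CKO cells and 11.41 (4.65 to 12.84) in WT cells, detected in 2 N1-CKO and 7 WT cells, and the means differed by -3.29. Prim1, the catalytic primase subunit, had a median of 5.26 (4.65 to 13.97) in N1-CKO cells and of 9.72 (4.65 to 14.21) in WT cells, detected in 2 N1-CKO and 6 WT cells. The Prim1 difference of -2.89 came from 18S-poor arrays (-4.66) and was -0.05 on 18S-rich arrays. Its partner Prim2 was detected in 3 N1-CKO and 5 WT cells (-1.79). The catalytic subunit gene of polymerase delta, Pold1, was detected in 5 N1-CKO and 6 WT cells (-0.47) with a difference of 3.67 on 18S-rich and -3.05 on 18S-poor arrays, so it has no settled direction. Pole, the catalytic subunit gene of polymerase epsilon, was detected in 0 N1-CKO and 2 WT cells (-1.98). Pola1 (1 N1-CKO and 2 WT cells, 0.11) and Pola2 (3 N1-CKO and 0 WT cells, -0.29) are both of polymerase alpha. Pola1 had medians near the floor, 5.01 in N1-CKO and 4.65 in WT cells. For Pola2 the medians were 5.76 in N1-CKO and 6.55 in WT cells. Its detection counts depend on thresholds that differ between arrays. A Pola2 signal of 8.83 counted as detected in an N1-CKO cell, whereas 10.61 in a WT cell did not.

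Among the clamp and clamp loader genes, Pcna was the one detected in most cells. Pcna, the sliding clamp, had a median of 12.81 (4.65 to 15.07) in N1-CKO cells and of 13.46 (4.65 to 14.79) in WT cells. It was detected in 7 N1-CKO and 10 WT cells, and the means of 10.34 ± 3.90 in N1-CKO and 11.89 ± 3.53 in WT cells differed by less than either SD. The clamp loader genes were detected in similar numbers, Rfc3 in 5 N1-CKO and 4 WT cells (-0.26), Rfc4 in 4 N1-CKO and 5 WT (-1.50) and Rfc5 in 3 N1-CKO and 3 WT (-0.23). Of these 4 genes only Rfc4 kept its sign in both array sets. The difference was 0.17 on 18S-rich and -2.63 on 18S-poor arrays for Pcna, 1.96 and -1.65 for Rfc3, and 4.10 and -2.94 for Rfc5.

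**Figure D3:**
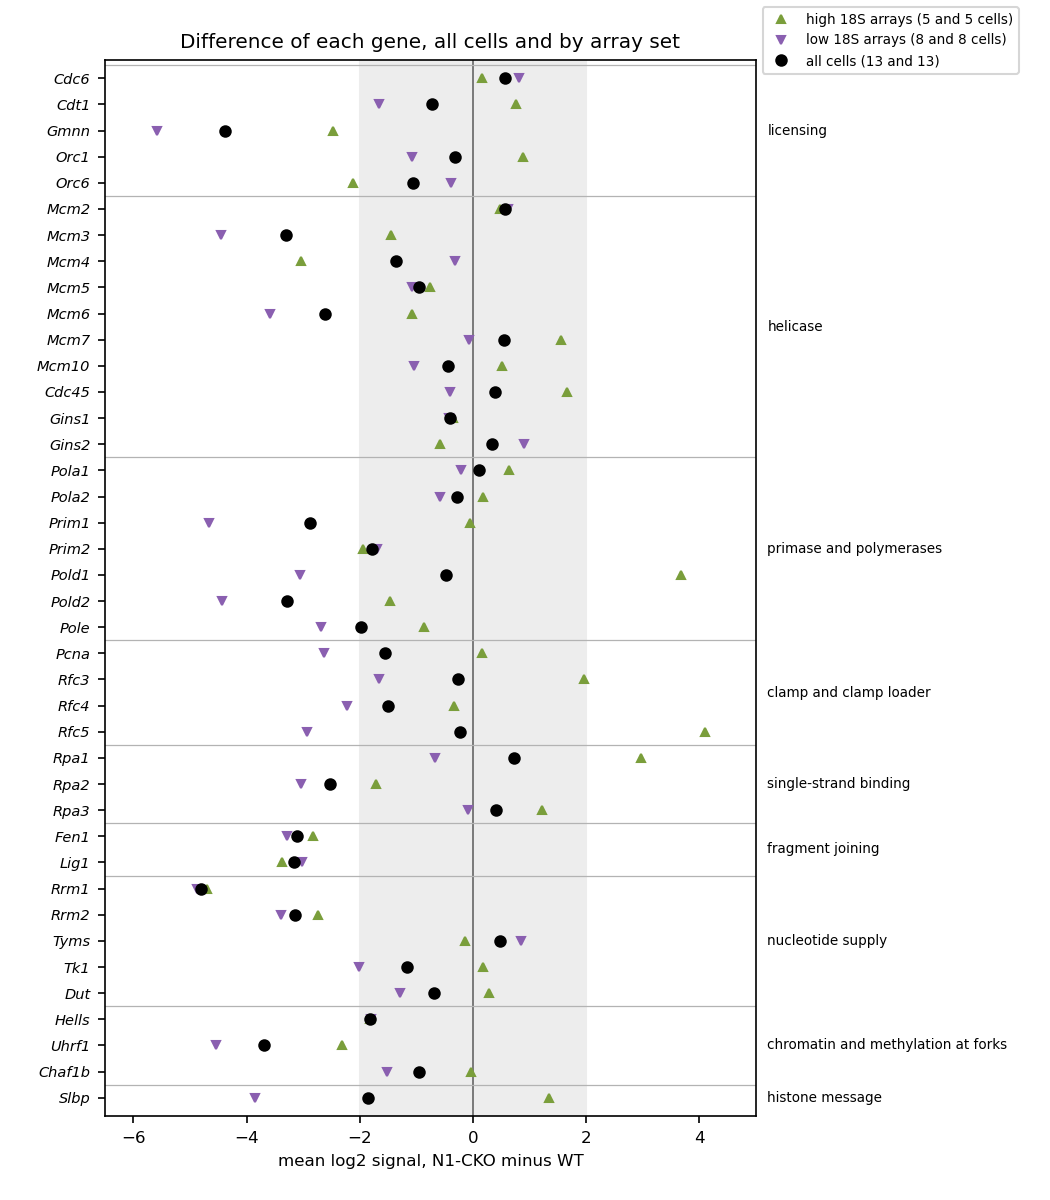
Difference of mean log2 signal, N1-CKO minus WT, for each of the 40 genes, over all cells (black) and within the 18S-rich (green, high 18S) and 18S-poor (purple, low 18S) arrays; the grey band spans -2 to 2. Rrm1, Lig1 and Fen1 lie left of the band on both kinds of array, whereas Rfc5 and Pold1 lie on opposite sides of 0.

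Both genes that process or join newly made fragments were lower in N1-CKO cells in each array set. Lig1, the replicative DNA ligase, had a median of 5.91 (4.65 to 14.94) in N1-CKO cells and of 11.34 (4.65 to 14.74) in WT cells. It was detected in 1 N1-CKO and 8 WT cells, and the means differed by -3.16 (-3.37 on 18S-rich, -3.02 on 18S-poor arrays). The 1 N1-CKO cell with Lig1, cell 6, had the highest Lig1 signal of all 26 cells. Fen1, the flap endonuclease, had a median of 5.96 (4.65 to 12.66) in N1-CKO cells and of 12.14 (5.51 to 14.28) in WT cells. Its transcript was found in 3 N1-CKO and 7 WT cells, with a mean difference of -3.10. Both were detected in 0 N1-CKO and 4 WT cells. With Lig1 detected in 1 N1-CKO cell, these joint counts follow largely from the count of each gene.

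Single-strand binding genes were mixed. Rpa2, the middle subunit of replication protein A, was detected in 4 N1-CKO and 6 WT cells, with medians of 5.19 (4.65 to 13.14) in N1-CKO cells and 10.40 (4.65 to 13.55) in WT cells and a difference of -2.53. The large subunit gene Rpa1 was detected in 3 cells of each group (0.73), and the small subunit gene Rpa3 in none of the 26 cells (0.41, near the floor).

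Among the chromatin genes, Uhrf1 was the only one of the 40 detected in 0 cells of one group and at least 5 of the other. Such counts were also seen among the mitosis genes, in Bub1b (0 N1-CKO and 9 WT cells) and Cenpf (0 N1-CKO and 6 WT). The share of all measured genes with such counts was not computed. Uhrf1 recognises hemimethylated DNA behind the fork and recruits the maintenance methyltransferase. Its signal had a median of 4.65 (4.65 to 9.32) in N1-CKO cells and of 11.93 (4.65 to 13.85) in WT cells. It was detected in 0 of 13 N1-CKO cells (0%, interval 0 to 24.7) and in 7 of 13 WT cells (53.8%, 25.1 to 80.8), namely cells 2, 3, 4, 5, 6, 8 and 11, on whose arrays 5 to 25 of the other replication genes were detected. The means differed by -3.68. No fold is given, because the WT mean over all 13 cells did not exceed the mean detection threshold of the N1-CKO arrays. Hells, a chromatin remodeller, was detected in 0 N1-CKO and 1 WT cells (-1.81), and Chaf1b, a subunit of chromatin assembly factor 1, in 0 N1-CKO and 0 WT (-0.95). Slbp, which binds the stem-loop of histone mRNAs, was detected in 5 N1-CKO and 8 WT cells, and its difference of -1.85 was 1.35 on 18S-rich and -3.85 on 18S-poor arrays.

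The number of detecting cells and the level within them were set side by side. Of the 40 genes, 27 were detected in fewer N1-CKO than WT cells, 7 in more and 6 in equally many. Over all measured genes, 23.2% were detected in fewer N1-CKO cells, and over those detected in at least 6 cells 42.6% were. Summed over genes there were 107 detections in N1-CKO and 183 in WT cells. A level in detecting cells could be set for 18 genes, those detected in at least 3 cells of each group. Between detecting cells the median difference of these 18 genes was -0.39 (-1.43 to 0.92), with 13 lower and 5 higher in N1-CKO cells, and over all cells it was -1.005. Detecting cells had 12.58 ± 1.48 for Rrm1 in N1-CKO (n = 5) and 13.23 ± 0.98 in WT (n = 13), and 13.61 ± 0.76 for Pcna in N1-CKO (n = 7) and 13.65 ± 1.19 in WT (n = 10). Detection by its definition leaves dim cells out of these levels, and of the 11 genes past the 4-fold difference only Rrm1, Fen1 and Rpa2 could be included.

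**Figure D4:**
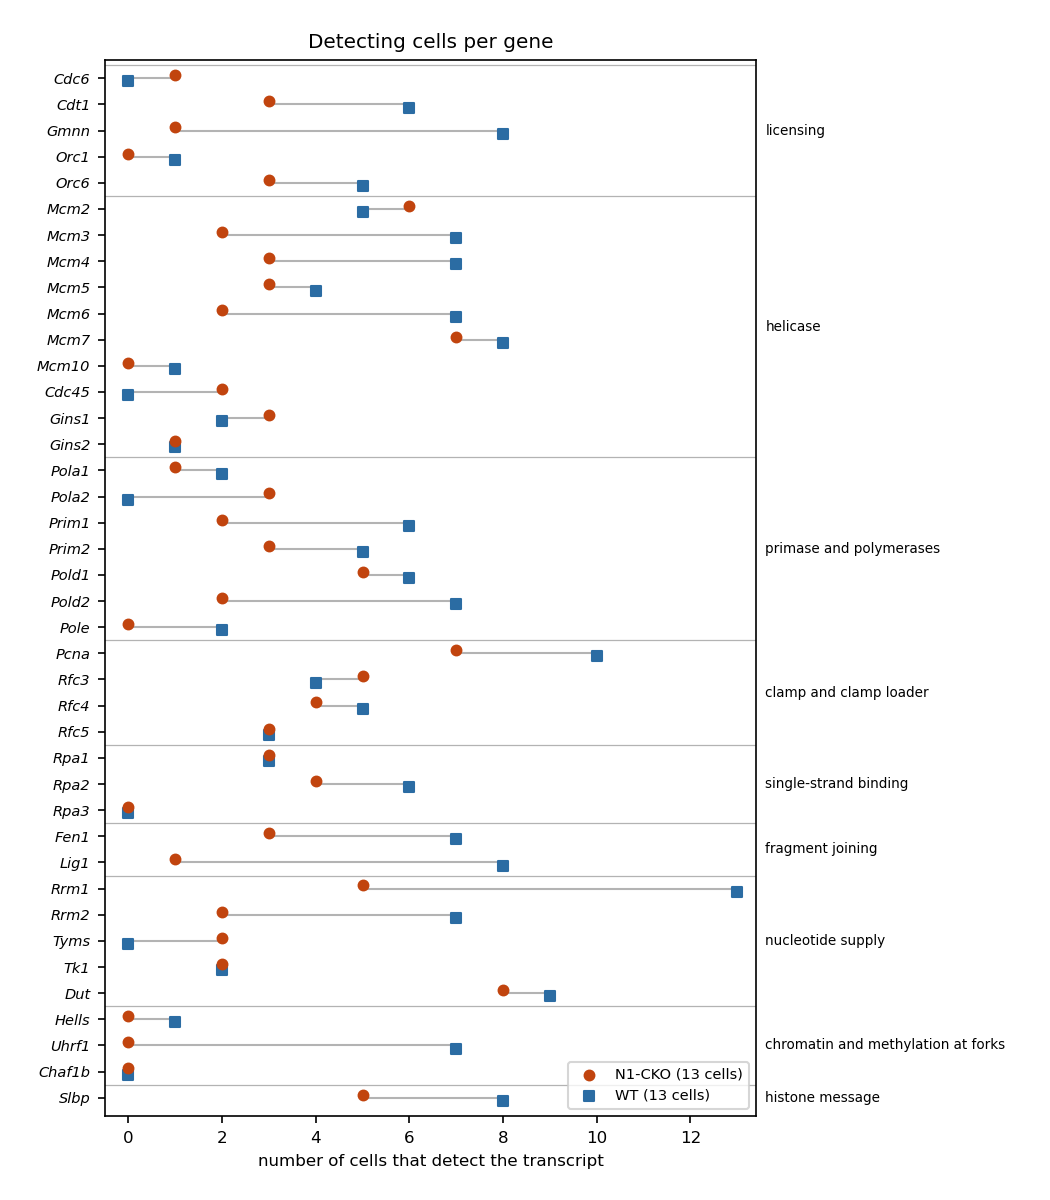
Number of cells, of 13 in each group, that detect each of the 40 transcripts (red circles N1-CKO, blue squares WT). The widest gaps belong to Rrm1 (5 N1-CKO and 13 WT cells), Gmnn (1 N1-CKO and 8 WT), Lig1 (1 N1-CKO and 8 WT) and Uhrf1 (0 N1-CKO and 7 WT), while Dut (8 N1-CKO and 9 WT) and Mcm7 (7 N1-CKO and 8 WT) are nearly level.

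Counted by cell, N1-CKO cells detected a median of 6 of the 40 genes (3 to 19) and WT cells 14 (5 to 26). The mean log2 signal over the 40 genes was 7.08 ± 1.09 (5.64 to 9.27) in N1-CKO cells and 8.40 ± 1.46 (5.80 to 11.13) in WT cells, a difference of -1.32. This is smaller than the SD over WT cells, and the groups overlapped. At least 10 genes were detected in 4 of 13 N1-CKO cells (30.8%, interval 9.09 to 61.4) and in 9 of 13 WT cells (69.2%, 38.6 to 90.9). The limit of 10 was set after the values were seen. These intervals cover counting error only and, with no animal named, do not compare the groups. The N1-CKO cells with the most were cell 4 with 19 and cell 3 with 18, and the WT cells with the most were cell 4 with 26 and cell 6 with 23. On 18S-rich arrays the median was 5 in N1-CKO and 9 in WT cells, and on 18S-poor arrays 6.5 in N1-CKO and 16 in WT cells.

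The brightness of an array moved with this count. Across cells, the number of replication genes detected correlated with the number of bright probe sets at r = 0.63 in N1-CKO and 0.53 in WT cells (n = 13 each). Both numbers were taken from the same arrays. Without the 2 cells farthest from the median count, r was 0.55 in N1-CKO and 0.58 in WT cells. For the mean signal over the replication genes, r was 0.33 in N1-CKO and 0.46 in WT cells. Without the 2 farthest cells it was -0.01 in N1-CKO and 0.58 in WT cells. The part of array brightness in the group difference was not tested. Markers of cell state moved with the groups as well. Of 10 progenitor genes, N1-CKO cells detected a median of 4 (2 to 8) and WT cells 6 (3 to 10). Of 9 photoreceptor precursor genes, N1-CKO cells detected 5 (1 to 8) and WT cells 3 (0 to 6), and of 7 general neuronal genes N1-CKO cells detected 4 (2 to 6) and WT cells 1 (0 to 5). The part of cell type in the replication gene values was not tested.

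Replication and mitosis transcripts were compared within cells. Of 23 genes of mitosis, N1-CKO cells detected a median of 2 (0 to 12) and WT cells 11 (2 to 21), and all 23 had lower means in N1-CKO cells (median -2.90). Among the 23, 19 were detected in at least 6 cells and 1 in no cell. A lower mean was found for 46.5% of all measured genes and for 52.3% of those detected in at least 6 cells. The median difference of these mitosis genes was -1.16 on 18S-rich and -4.05 on 18S-poor arrays. Mki67, the proliferation antigen gene, was detected in N1-CKO cells 1, 2, 3 and 11, which detected 8, 13, 18 and 11 replication genes, and in 11 WT cells. With limits set after the values were seen, at least 10 replication genes and at least 8 mitosis genes were detected together in 2 N1-CKO and 8 WT cells. Neither limit was reached in 8 N1-CKO and 2 WT cells.

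In some cells the counts for replication and mitosis genes lay far apart. N1-CKO cell 4 detected 19 replication genes, all 6 ring subunits among them, but 1 mitosis gene and no Mki67. Its Gapdh ratio was 5.16. WT cell 12 likewise detected 19 replication and 3 mitosis genes. WT cell 8 detected 6 replication and 15 mitosis genes. Within groups, the mean over replication genes correlated with the mean over mitosis genes at r = 0.63 (rho = 0.70) in N1-CKO cells and at r = 0.32 (rho = 0.29) in WT cells. Without the 2 cells farthest from the median r was 0.68 in N1-CKO and -0.02 in WT cells. These are descriptions over 13 cells each that share array, amplification and scaling.

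**Figure D5:**
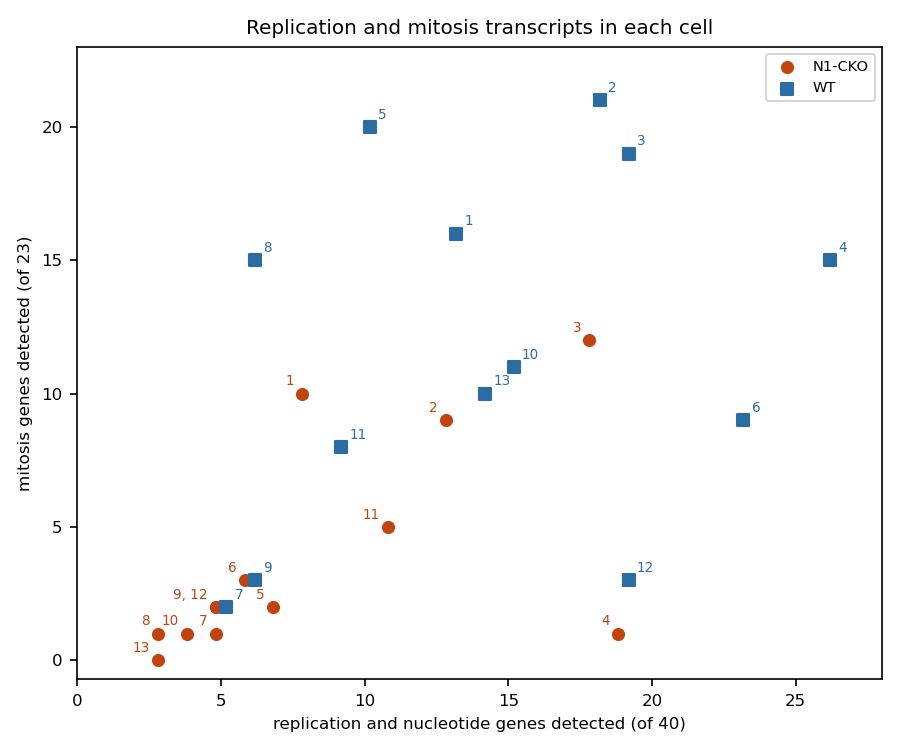
Number of replication and nucleotide genes detected (of 40) against mitosis genes detected (of 23) in each cell, labelled by cell number; red circles are N1-CKO and blue squares WT cells, shifted slightly apart sideways. N1-CKO cells crowd at the lower left, and N1-CKO cell 4 and WT cell 12, each with 19 replication genes, lie low at the right.

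The replication genes were only loosely coupled from cell to cell. Over the 26 genes detected in at least 6 cells, the median pairwise correlation was 0.27 across 26 cells, 0.19 within N1-CKO and 0.26 within WT cells. Over the 15 pairs of ring subunits it was 0.26 across 26 cells, 0.38 within N1-CKO and 0.26 within WT cells. Over the 23 mitosis genes it was 0.49 across 26 cells, 0.27 within N1-CKO and 0.50 within WT cells, so the order of these sets differs between the groups. Values across all cells also hold the difference between the groups. Over all 4682 genes detected in at least 6 cells it was 0.03. The pairs share genes and arrays, so these medians describe the cells and are no test.

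By promoter, 9 of the 21 measured genes with an E2F motif in a window lay at -2 or lower, with a median difference of -1.50. Of the 13 measured genes with a window and no motif, Pold2 alone did, with a median of -0.45. The 6 measured genes without a window, Gmnn among them, had a median of -1.58. Of all measured genes, 3.18% lay at -2 or lower, and of those detected in at least 6 cells 9.5% did. No such share is given for all genes with the motif. The counts by promoter describe the replication genes only and say nothing of what binds there.

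Other genes of DNA replication and repair, 53 measured of 57 listed, had a smaller shift. The N1-CKO mean was lower for 33 and higher for 20, the median difference was -0.37, and 9 lay at -2 or lower and 0 at 2 or higher. That median was 0.07 on 18S-rich and -0.82 on 18S-poor arrays. Detection in at least 6 cells was reached by 24 of these 53 genes and by 26 of the 40 replication genes. The part of this in the smaller shift was not tested. Of all measured genes, 46.5% had a lower mean, 3.18% lay at -2 or lower and 2.17% at 2 or higher. Of those detected in at least 6 cells, 9.5% lay at -2 or lower and 6.66% at 2 or higher. The checkpoint scaffold gene Topbp1 was detected in 1 N1-CKO and 9 WT cells, with means of 7.23 ± 2.71 in N1-CKO and 10.73 ± 3.69 in WT cells (-3.51). Tipin, of the fork protection complex, was detected in 6 N1-CKO and 10 WT cells (-3.10), Dbf4, the activator of the Cdc7 kinase that fires origins, in 1 N1-CKO and 5 WT (-2.59), and the histone chaperone gene Nasp in 6 N1-CKO and 9 WT (-2.56). Of 28 genes of G1/S control, 19 had lower means (median -0.16), with 6 at -2 or lower and 0 at 2 or higher. The cyclin gene Ccnd1 was detected in 10 N1-CKO and 13 WT cells (-3.10), the kinase genes Cdk2 in 1 N1-CKO and 5 WT (-2.47) and Cdk6 in 2 N1-CKO and 6 WT (-2.42), and the inhibitor gene Cdkn1b in 9 N1-CKO and 11 WT (-2.001).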

How the data were processed

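Each cell's array was deposited as linear intensity per probe set, computed with MAS5 according to the submitters' processing notes. The mean after trimming 2% at each end was 500.0 on every array, so total RNA per cell cannot be compared. The MAS5 version and settings are not stated in those sources, and its detection calls were not used here. Per the labels' protocols, cDNA was primed with oligo dT and amplified by PCR, which favours 3' ends.

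Genes were named from GEO's platform annotation. Probe sets with 1 gene symbol (34945 of 45101) were used, and 932 with several were left out. Where a gene had several, the brightest by mean log2 signal across all cells stood for it. Of 47 other probe sets of the replication genes, 14 had the opposite sign. Signals under the pooled median, 25.02, were raised to it before log2. Detection was set at the 90th percentile of each array, from 245.3 to 2409. Differences are N1-CKO minus WT means of log2 signal, with no test. Intervals are exact and cover counting error only, and the number of arrays limits the precision.

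The members and lists were chosen with earlier results of these data known. By rule, full values are given for the genes of each functional group with the largest differences, and up to 4 genes of other lists. Array sets were split at the largest gap of the 5' 18S control. Alternatives covered floor, probe set, scaling, detection, array set, RNA quality and single cells. Python 3.11.15, pandas 2.3.3 and numpy 2.4.6 were used. The calculation was tested on simulated data with less spread between cells than the real data, and with shifts in bright genes only. That test says nothing of shifts near the floor or of detection counts.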

Additional observations from a re-analysis of the deposited data

How the results depend on the processing

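The median difference over the 40 genes stayed below 0 in each alternative run, from -1.68 on 18S-poor arrays to -0.10 on 18S-rich arrays, and from -1.31 to -0.72 with 1 cell left out. It was -0.72 with a gene's probe sets averaged, -0.78 with a higher floor, -1.12 without a floor and -1.08 after quantile normalization. The number of genes at -2 or lower, 11 over all cells, was 18 on 18S-poor arrays, 8 on 18S-rich arrays, 8 with a gene's probe sets averaged and 11 to 15 with 1 cell left out. With a limit of -1 it was 20 (11.1% of all measured genes). The number at 2 or higher was 3 on 18S-rich arrays and 2 when cell medians replaced means (Mcm2 and Rpa1), and 0 in the other alternatives. The median number of genes detected per cell was 2 in N1-CKO and 6 in WT cells at the 95th percentile, and 11 and 20 at the 80th. The cause of these shifts was not tested. None of the 11 genes at -2 or lower changed sign in an alternative. Besides the 5 that fell short of -2 on 18S-rich arrays, Rrm1 (-1.98), Mcm6 (-1.99) and Rpa2 (-1.70) did so with probe sets averaged, Fen1 (-1.82) with another probe set and Rpa2 (-1.75) with a higher floor. No paired analysis was possible because the cell numbers pair nothing and the results come from no test.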
